A study of Rattus norvegicus with 64 samples.

Results

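Collagens are the fibre- and network-forming proteins of the extracellular matrix, and the members described here were the genes whose symbol in the deposited comparison tables is Col followed by a type number, the letter a and a chain number. The rule found 38 of the 32552 gene rows of the count tables, with 1 row per symbol. They comprise 10 fibrillar collagens (Col1a1, Col2a1, Col3a1, Col5a1, Col5a2, Col5a3, Col11a1, Col11a2, Col24a1 and Col27a1), 8 collagens of basement membranes (Col4a1 to Col4a6, Col15a1 and Col18a1) and 20 others. Col1a2 and Col6a3 were not found by symbol and were not analysed here. RNA was sequenced from the hippocampus and cortex of 32 rats labelled ApoE3 or ApoE4, after isoforms of the lipid carrier apolipoprotein E. Of each genotype, 8 rats had received doxorubicin, a DNA-damaging chemotherapy drug, at 2 mg/kg per week for 4 weeks from an age of 5 weeks, and 8 had received PBS. Brains were collected 5 to 6 weeks later, counted from the final injection. The 8 groups of region, genotype and treatment thus held 8 libraries each, from 4 males and 4 females, and each rat gave both a hippocampal and a cortical library. The PBS controls carried the same ApoE3 or ApoE4 alleles as the treated rats. How the alleles were introduced and the strain are not given in the sources used here. Rat numbers ran in unbroken blocks of genotype, sex and treatment, so handling order cannot be told apart from these factors.

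A collagen molecule is a triple helix of chains that are hydroxylated and folded in the endoplasmic reticulum, secreted, trimmed and cross-linked. Fibrillar types I, III and V form the fibres of the leptomeninges and of the sheaths of larger vessels, made there mainly by fibroblasts. Type IV chains form the sheet-like network of the basement membranes around brain capillaries and under the pia, where they bind laminins and nidogens. FACIT collagens decorate fibrils, type VI forms beaded filaments, and the transmembrane collagen of Col25a1 is made by neurons.

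Levels are given as CPM, the counts of a gene per 1000000 counts on all genes of its library. Transcript lengths for the annotation used were not at hand, so levels are compared between groups for the same gene and not between genes. The libraries held 10836181 to 20397553 counts, spike-ins included. All 8 neuron, 10 astrocyte, 9 oligodendrocyte and 7 microglia markers were detected in every library. Some libraries stood apart in markers of meninges and choroid plexus, tissues that border the dissected regions. The summed level of 17 meningeal fibroblast markers, none of them a collagen, was 122 to 1181 CPM (median 513) in hippocampal ApoE3 PBS libraries, 106 to 731 CPM (median 125) in ApoE3 doxorubicin, 131 to 1479.7 CPM (median 461) in ApoE4 PBS and 122 to 1839 CPM (median 153) in ApoE4 doxorubicin. In the cortex the sums were 152 to 322 CPM (median 213), 150.5 to 513 CPM (median 237), 170.5 to 485 CPM (median 393) and 111 to 594 CPM (median 231) in the same order. A sum over 14 choroid plexus markers passed 500 CPM in 11 libraries, 8 of them hippocampal, and the highest was 13903 CPM in the hippocampus of ApoE4 PBS rat 7 against a group median of 204 CPM. Slc13a4 stands in both marker lists. In bulk tissue, fewer cells of a type and less RNA per cell cannot be told apart.

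The 6 chains of type IV collagen are encoded by gene pairs that start head to head, and the members of a pair are compared repeatedly below, so the sequences between or before their starts are shown first. They come from RefSeq (build GRCr8), which held a promoter entry for 29 of the 38 members. Col4a1 and Col4a2 start 77 bases apart on opposite strands, Col4a3 and Col4a4 413 bases apart, and Col4a5 and Col4a6 1415 bases apart. The first sequence is the stretch between the Col4a1 and Col4a2 starts (chr16:84885521-84885596, plus strand), and the others are the 250 bases before the start of Col4a3 (chr9:91323740-91323989, plus), Col4a4 (chr9:91323578-91323827, minus), Col4a5 (chrX:109907109-109907358, plus) and Col4a6 (chrX:109905945-109906194, minus), all written 5′ to 3′ on the strand named.
Col4a1 and Col4a2: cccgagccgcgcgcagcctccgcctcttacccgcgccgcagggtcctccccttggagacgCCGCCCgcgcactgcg
Col4a3: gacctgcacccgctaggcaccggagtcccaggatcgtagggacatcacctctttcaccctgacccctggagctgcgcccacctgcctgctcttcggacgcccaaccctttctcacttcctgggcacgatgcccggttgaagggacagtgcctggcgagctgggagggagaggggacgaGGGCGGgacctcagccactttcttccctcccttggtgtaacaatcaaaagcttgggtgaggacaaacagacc
Col4a4: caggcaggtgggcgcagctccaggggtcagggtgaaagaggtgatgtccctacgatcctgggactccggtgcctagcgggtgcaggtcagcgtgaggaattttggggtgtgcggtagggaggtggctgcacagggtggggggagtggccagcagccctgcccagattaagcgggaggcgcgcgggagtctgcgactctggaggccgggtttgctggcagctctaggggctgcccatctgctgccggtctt
Col4a5: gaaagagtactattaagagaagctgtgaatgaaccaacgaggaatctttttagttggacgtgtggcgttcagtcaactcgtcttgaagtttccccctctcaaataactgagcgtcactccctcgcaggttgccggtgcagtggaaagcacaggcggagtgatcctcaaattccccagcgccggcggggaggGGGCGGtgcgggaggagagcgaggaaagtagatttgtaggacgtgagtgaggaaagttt
Col4a6: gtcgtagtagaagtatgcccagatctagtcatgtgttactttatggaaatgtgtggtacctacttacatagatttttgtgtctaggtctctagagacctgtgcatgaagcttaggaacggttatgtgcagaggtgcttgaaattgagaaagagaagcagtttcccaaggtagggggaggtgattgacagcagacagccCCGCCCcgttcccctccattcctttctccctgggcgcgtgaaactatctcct
Capitals mark the GC box, GGGCGG on either strand. CCAAT and TATAAA were searched on both strands too, and the motifs did not overlap. The GC box was present once in each sequence apart from that of Col4a4, and neither CCAAT nor TATAAA was present in any of them. Of all 33469 RefSeq windows, 30.5% held a GC box in the 250 bases before the start and 18.1% in the last 76. CCAAT was in 34.0% and 13.0%, and TATAAA in 12.9% and 4.61%. These matches describe letters in the windows and not factor binding.

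The comparison of the regions asked how collagen expression differs between hippocampus and cortex in PBS rats. In ApoE3 rats 19 of 36 collagens tested were higher in the hippocampus and 8 were lower, by edgeR's quasi-likelihood test at an adjusted p under 0.05, where 49.3% of all 14981 genes passed. In ApoE4 rats 13 were higher and 11 lower of 36, against 49.2% of 14835 genes. These fits, used for all region values below, did not pair the regions of a rat. With the rat as a block, as many collagens passed in each genotype. The same 19 collagens passed in the same direction in both genotypes (12 higher and 7 lower), which is 70.4% of the ApoE3 calls and 79.2% of the ApoE4 calls, and none passed in opposite directions. The median collagen difference, on the log2 scale throughout, was 0.29 in ApoE3 and 0.15 in ApoE4, beside -0.00 and 0.01 over all genes. Groups did not overlap for 10 collagens in ApoE3 and 8 in ApoE4, where 18.9% and 20.2% of all genes did not.

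Among fibrillar collagens, Col5a2, a chain of the type V collagen that sets fibril diameter, stood at 60.2 to 81.1 CPM (median 66) in ApoE3 hippocampus and 23.4 to 35.0 CPM (median 29.1) in ApoE3 cortex. In ApoE4 rats it stood at 49.3 to 66.3 CPM (median 56.4) and 22.6 to 31.5 CPM (median 27.1). Every hippocampal library lay above every cortical one in both genotypes, with differences of 1.17 ± 0.08 (SE; adjusted p = 5.15e-10) and 1.03 ± 0.08 (adjusted p = 2.07e-09), edgeR. Its type V partner Col5a1 differed by -0.04 ± 0.11 in ApoE3, which did not pass, and was lower in the ApoE4 hippocampus by 0.35 ± 0.13 (edgeR adjusted p = 0.0364). Col24a1, a minor fibrillar collagen, was lower in the hippocampus, at medians of 4.21 against 12.9 CPM in ApoE3 (-1.52 ± 0.19) and 4.47 against 8.84 CPM in ApoE4 (-0.90 ± 0.14). Col27a1, Col5a3 and Col11a2 were higher in both genotypes by 0.22 to 0.57. Col11a1, a type XI chain, was higher in ApoE4 rats by 0.41 ± 0.08 and differed by -0.15 ± 0.08 in ApoE3, which did not pass. Col1a1, the alpha 1 chain of type I collagen, stood at 13.6 to 151 CPM (median 63.9) in ApoE3 hippocampus against 15.1 to 30.4 CPM (median 23.4) in cortex (1.59 ± 0.42, edgeR adjusted p = 0.00391, 5 of 8 libraries above the cortical median). In ApoE4 rats the difference was -0.09 ± 0.43 (edgeR adjusted p = 0.879). Col3a1, the type III chain found beside type I, differed by 1.17 ± 0.42 in ApoE3 (edgeR adjusted p = 0.0263) and -0.36 ± 0.44 in ApoE4 (edgeR adjusted p = 0.536). In the ApoE3 libraries 13 of 17 meningeal markers were higher in the hippocampus too, and in ApoE4 2 of 16, and their part in the fibrillar values was not tested. Whether the regional difference itself differs between genotypes was not tested.

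The basement membrane group split by gene pair. Col4a1, whose chains form with those of Col4a2 the network around all brain capillaries, stood at 56.6 to 80.5 CPM (median 62.1) in ApoE3 hippocampus and 31.7 to 46.0 CPM (median 37.9) in cortex, and at 57.6 to 82.1 CPM (median 72) and 42.8 to 54.7 CPM (median 49.1) in ApoE4. Col4a2 stood at 94.6 to 123 CPM (median 104) and 45.1 to 65.6 CPM (median 59.2) in ApoE3 and at 107 to 132 CPM (median 122) and 57.0 to 71.1 CPM (median 65.9) in ApoE4. For both genes all hippocampal libraries lay above all cortical ones. The differences were 0.73 ± 0.08 and 0.52 ± 0.06 for Col4a1 and 0.84 ± 0.06 and 0.88 ± 0.06 for Col4a2 (edgeR adjusted p at most 1.91e-06). Col4a3 and Col4a4, whose chains join that of Col4a5 in the filtration barrier of the kidney, went the other way. Col4a3 was lower in the hippocampus by 0.71 ± 0.13 in ApoE3 and 0.82 ± 0.17 in ApoE4, and Col4a4 was lower by 0.32 ± 0.09 and 0.70 ± 0.09. Col4a5 was higher by 1.00 ± 0.14 and 0.53 ± 0.15. Its partner Col4a6 was higher by 1.71 ± 0.37 in ApoE3 and differed by 0.35 ± 0.30 in ApoE4, which did not pass (edgeR adjusted p = 0.358). Col18a1, the precursor of the angiogenesis inhibitor endostatin, was higher by 1.13 ± 0.24 and 0.52 ± 0.16. Col15a1 was below the expression filter in both region comparisons, with medians of 0.203 to 0.90 CPM over the 8 groups of libraries.

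Among the other collagens, Col25a1, the neuronal transmembrane collagen also found in amyloid plaques, stood at 32.9 to 54.3 CPM (median 42.8) in hippocampus and 13.6 to 23.5 CPM (median 20.2) in cortex of ApoE3 rats, and at 40.1 to 49.9 CPM (median 44.0) and 14.9 to 21.3 CPM (median 19.3) in ApoE4. No library of the regions overlapped (1.11 ± 0.10 and 1.23 ± 0.07). Col19a1, a FACIT collagen made by interneurons, was lower in the hippocampus, at 4.81 to 13.7 CPM (median 8.80) against 23.6 to 34.8 CPM (median 30.0) in ApoE3 and 6.24 to 14.7 CPM (median 8.91) against 28.0 to 34.7 CPM (median 29.4) in ApoE4. Its differences were -1.66 ± 0.15 and -1.65 ± 0.12, again without overlap. Col9a1, a type IX chain and the neighbour of Col19a1 among the protein-coding genes of RefSeq, was also lower (-1.66 ± 0.21 and -1.45 ± 0.21), while the type IX chains Col9a2 and Col9a3 differed by 0.09 to 0.60, and of these 4 values only that of Col9a2 in ApoE3 (0.22) passed. The neighbouring type VI genes Col6a5 and Col6a6 moved apart: Col6a5 was higher in the hippocampus by 1.26 ± 0.20 and 1.05 ± 0.21, and Col6a6 lower by 0.62 ± 0.20 and 0.89 ± 0.17. Col13a1, a transmembrane collagen of the neuromuscular junction, was lower by 1.13 ± 0.30 and 1.40 ± 0.28. Col16a1, a FACIT collagen, was higher by 0.26 ± 0.06 and 0.24 ± 0.05. Col12a1, a FACIT on type I fibrils, was higher in ApoE3 (0.96 ± 0.15) and differed by 0.20 ± 0.15 in ApoE4, which did not pass. Col20a1, another FACIT collagen, was lower in ApoE3 by 0.43 ± 0.09 and differed by -0.17 ± 0.10 in ApoE4, which did not pass. Col6a1, a core chain of type VI collagen, was lower in the ApoE4 hippocampus by 0.82 ± 0.16 and differed by -0.15 ± 0.23 in ApoE3, which did not pass. Col6a2, with which it assembles, was higher in ApoE3 by 0.83 ± 0.18 and differed by 0.20 ± 0.22 in ApoE4, which did not pass. The cortical level of Col6a1 in these ApoE4 rats divided by sex, as described below, and the part of sex was not tested.

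Col8a2, a chain of the short type VIII network, was higher in the hippocampus in both genotypes (1.24 ± 0.34 and 1.52 ± 0.60), and Col8a1 in ApoE3 (2.04 ± 0.82). Some libraries high in choroid plexus markers were also high in Col8a2. In the hippocampus of ApoE4 PBS rats 7 and 26, the libraries with choroid plexus sums of 13903 and 6605 CPM, Col8a2 stood at 58.8 and 30.3 CPM, against at most 11.8 CPM in the other 6. Col9a3 stood at 83.3 and 54.8 CPM in them, against at most 20.4 CPM. Without all libraries above 500 CPM, the Col8a2 difference was 0.32 ± 0.33 in ApoE4 (edgeR adjusted p = 0.459) and 0.83 ± 0.32 in ApoE3 (edgeR adjusted p = 0.0481), and that of Col9a3 in ApoE4 turned from 0.60 to -0.10. Col8a1 was not only high there: hippocampal ApoE3 PBS rat 45 and ApoE4 doxorubicin rat 31 held 93.5 and 79.7 CPM with choroid plexus sums of 179 and 150.1 CPM. The libraries left out include hippocampal ApoE3 PBS rat 41, whose meningeal marker sum was 1107 CPM. The part of choroid plexus in these differences was not tested.

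**Figure D1:**
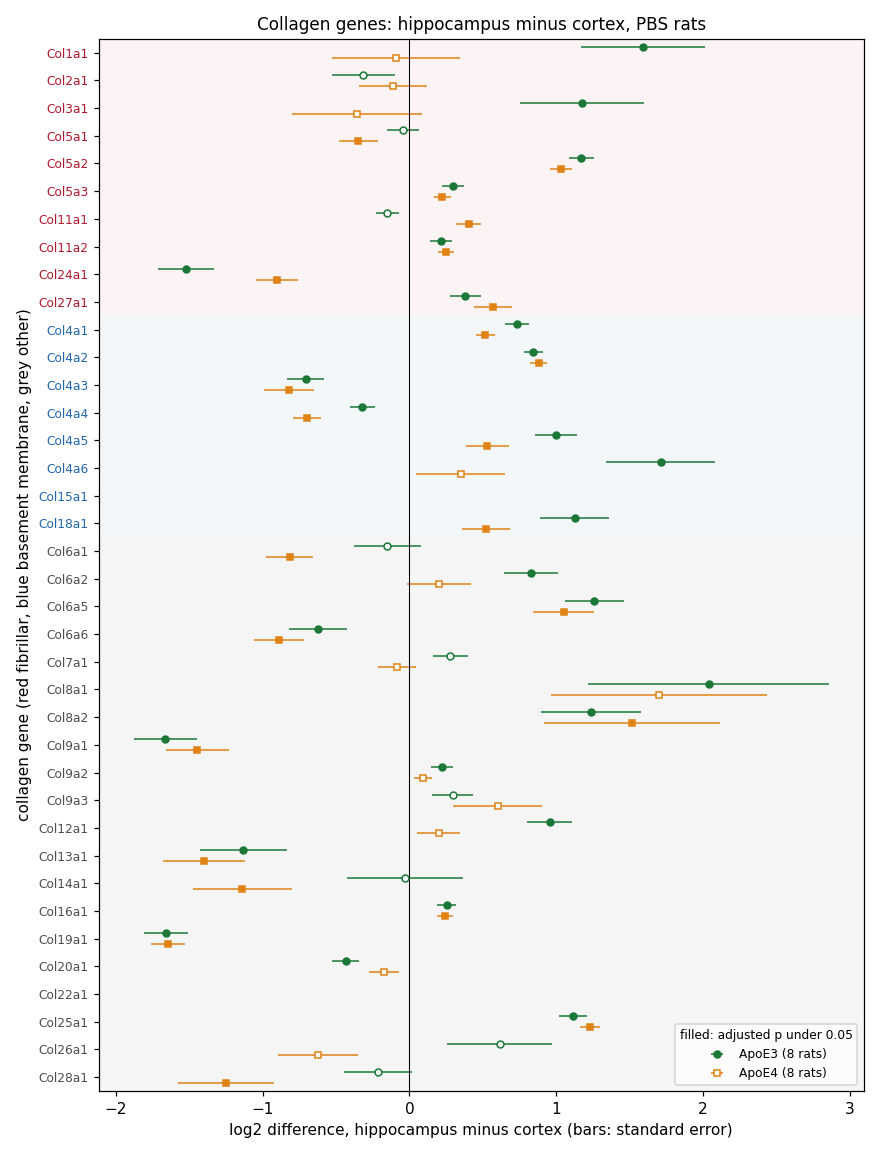
Difference between hippocampus and cortex of PBS rats for each collagen tested, as log2 hippocampus minus cortex on the horizontal axis with its standard error, for 8 ApoE3 rats (circles) and 8 ApoE4 rats (squares); filled symbols passed an adjusted p under 0.05. Col5a2, Col4a1, Col4a2 and Col25a1 lie to the right and Col19a1, Col9a1 and Col24a1 to the left in both genotypes, while Col1a1, Col3a1 and Col4a6 are filled in ApoE3 only.

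Collagens varied very unequally between libraries of the same group. The pooled within-group standard deviation of log2 CPM in the hippocampus was 0.12 for Col16a1, 0.13 for Col4a2 and 0.17 for Col25a1, but 1.22 for Col1a1, 1.31 for Col3a1 and 1.41 for Col8a2. In the cortex Col1a1 and Col3a1 had 0.63 and 0.62. In hippocampal ApoE4 doxorubicin rat 10, Col1a1 reached 247 CPM and Col3a1 190.4 CPM, against at most 22.6 and 14.0 CPM in the other 7 libraries of its group, and its meningeal marker sum was 1839 CPM. The cortex of the same rat was within its group, at 40.2 CPM for Col1a1 and 33.2 CPM for Col3a1.

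**Figure D2:**
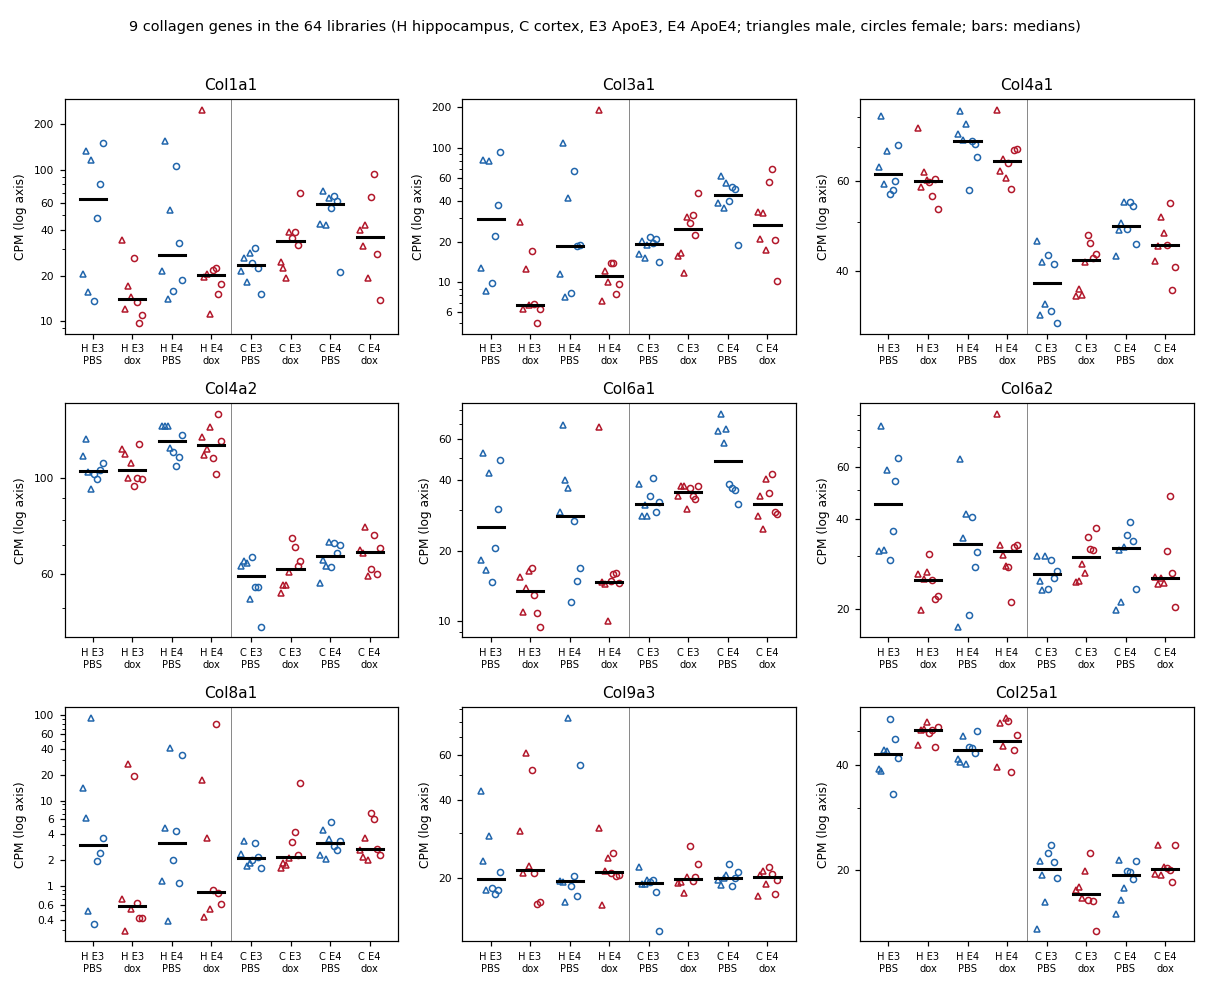
Level of 9 collagens in each of the 64 libraries, in CPM on a log axis scaled per gene, by region, genotype and treatment (blue PBS, red doxorubicin; triangles males, circles females; bars group medians). Col4a2 and Col25a1 are tight within groups and higher in hippocampus, Col1a1 and Col3a1 spread widely in hippocampal PBS libraries, and hippocampal ApoE4 doxorubicin rat 10 stands above the rest of its group for Col1a1, Col3a1, Col6a1 and Col6a2.

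To see which collagens vary with meningeal tissue, the deviation of each collagen from its group mean was set against that of the mean log2 CPM of the 17 meningeal markers over the 32 libraries of a region. With an endothelial marker score treated alike, 152 relations were computed and adjusted together. Col1a1 and Col3a1 followed the meningeal score most closely. In the hippocampus Col1a1 had Pearson's r = 0.97 and Spearman's rho = 0.94, and Col3a1 0.98 and 0.98. In the cortex the values were 0.97 and 0.94 for Col1a1, and 0.94 and 0.88 for Col3a1. Each of these had a two-sided permutation p of 1e-05 for r and for rho, the smallest that 100000 permutations can give (adjusted p = 4.61e-05 and 5.85e-05), and r was 0.92 to 0.97 without the 2 libraries of most extreme score. In the hippocampus 11 of 38 collagens reached a rho of 0.7, among them Col4a5, Col18a1, Col12a1 and Col6a2, and 6 of 38 did in the cortex. Of the 15885 genes that passed an expression filter over all libraries, 2.92% reached it in the hippocampus and 0.869% in the cortex. Col4a2 had r = -0.08 and rho = -0.20 in the hippocampus (permutation p = 0.683 and 0.280, adjusted 0.759 and 0.394) and a rho of 0.29 in the cortex. Col25a1 ran against the score in the hippocampus, with r = -0.50 and rho = -0.44 (permutation p = 0.00388 and 0.0117, adjusted 0.00936 and 0.0274; r = -0.39 without the 2 libraries). Collagens followed the endothelial score too: the median rho over the 38 collagens was 0.44 with either score in the hippocampus. In the cortex it was 0.29 with the meningeal and 0.32 with the endothelial score. With the endothelial score Col1a1 and Col3a1 had r = 0.84 and 0.86 in the hippocampus and 0.79 and 0.81 in the cortex. Whether a collagen follows meninges rather than vessels was not tested. The libraries of the regions come from the same rats, so the regional results are not independent of each other.

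**Figure D3:**
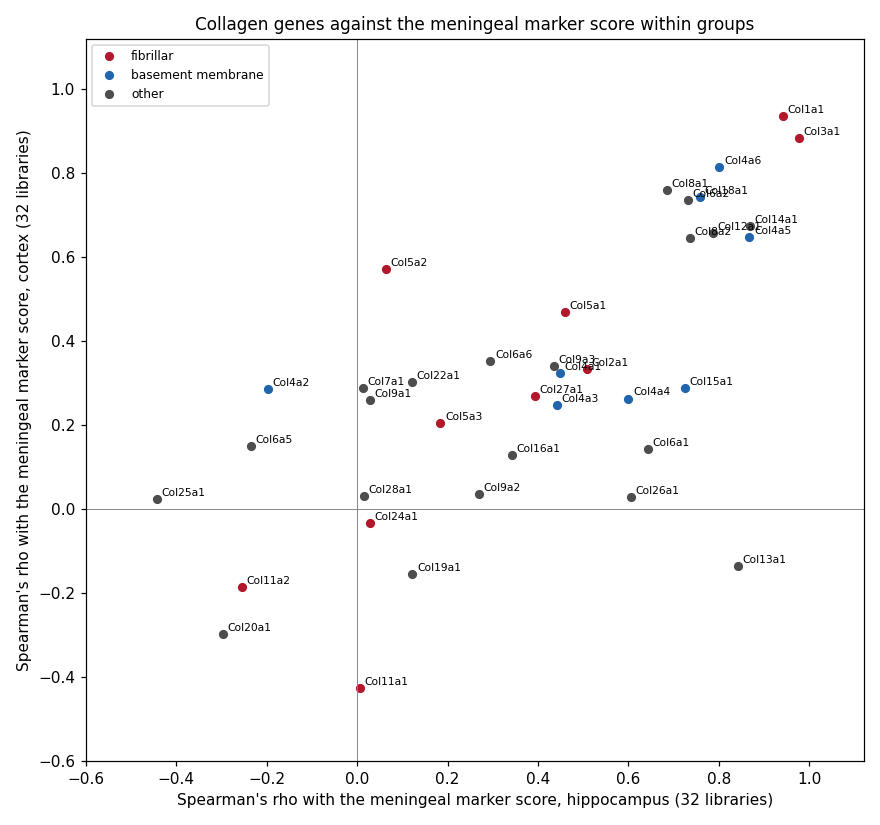
Spearman's rho of each of the 38 collagens with the meningeal marker score, over 32 hippocampal libraries (horizontal axis) and 32 cortical libraries (vertical axis), after group means were removed; colours mark fibrillar, basement membrane and other collagens. Col1a1 and Col3a1 lie at the top right, Col25a1, Col11a1 and Col11a2 lie near or below zero on both axes, Col4a2 lies below zero in the hippocampus and above it in the cortex (-0.20 and 0.29), and Col13a1 is high in the hippocampus only (0.84 against -0.14 in the cortex).

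The genotype comparison asked how collagens differ between ApoE4 and ApoE3 rats given PBS. In the cortex 9 of 37 collagens tested were higher in ApoE4 and 3 lower (edgeR, adjusted p under 0.05), where 16.2% of all 14825 genes passed (9.21% higher and 6.98% lower). Of the 8 basement membrane collagens 5 rose and none fell, with a median of 0.41 beside -0.01 over all genes. The fibrillar collagens gave 2 higher and 2 lower of 10. Cortical Col3a1 stood at 14.2 to 21.8 CPM (median 19.3) in ApoE3 and 19.1 to 61.3 CPM (median 44.6) in ApoE4, a difference of 1.26 ± 0.16 (edgeR adjusted p = 7.44e-06, 7 of 8 ApoE4 libraries above the ApoE3 median). Col1a1 stood at 15.1 to 30.4 CPM (median 23.4) and 21.2 to 72.9 CPM (median 59.0), a difference of 1.23 ± 0.17 (edgeR adjusted p = 4.08e-05, 7 of 8). The groups overlapped for both genes through ApoE4 rat 26 alone, which held 21.2 CPM of Col1a1 and 19.1 CPM of Col3a1. Its meningeal marker sum, 170.5 CPM, was also the lowest of its group.

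Among the type IV genes in the cortex, Col4a1 rose by 0.40 ± 0.08, Col4a2 by 0.20 ± 0.06, Col4a5 by 0.42 ± 0.09 and Col4a6 by 0.90 ± 0.26, with edgeR adjusted p-values of 0.000931 to 0.0408, and Col18a1 by 0.47 ± 0.12. Col4a3 and Col4a4 differed by -0.06 ± 0.10 and 0.18 ± 0.07 and did not pass. Col12a1 rose by 0.37 ± 0.09. Col6a1 rose by 0.61 ± 0.13, but its level divided by sex: the 4 ApoE4 males held 57.9 to 77.0 CPM and the 4 females 31.6 to 38.7 CPM, while ApoE3 males and females held 28.1 to 38.8 CPM and 29.4 to 41.1 CPM. Only the ApoE4 males lay above all ApoE3 libraries. Col6a2 differed by 0.16 ± 0.11 and did not pass (edgeR adjusted p = 0.349). The collagens that fell were Col24a1 (-0.58 ± 0.12), the type XI chain Col11a1 (-0.24 ± 0.08) and Col16a1 (-0.20 ± 0.07). Leaving out 1 library at a time, Col4a2 lost its call in 8 of 16 refits, Col11a1 in 9 and Col16a1 in 10, and the other 9 kept theirs in all 16.

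The meningeal marker sum was higher in the same ApoE4 cortical libraries, at a median of 393 against 213 CPM, with 8 of 17 tested markers higher and 0 lower, while 7 of 11 endothelial and 7 of 13 pericyte and smooth muscle markers were higher. The endothelial sum was 462 against 382 CPM. With the meningeal score as a covariate, a setting chosen after seeing the data, 3 collagens were higher and 1 lower, where 6.88% of all genes passed: Col3a1 (0.72 ± 0.10), Col1a1 (0.60 ± 0.09), Col4a1 (0.37 ± 0.09) and Col24a1 (-0.55 ± 0.16). Of the 8 that no longer passed, Col4a2 (0.21 ± 0.08) and Col16a1 (-0.21 ± 0.09) stayed about as large with larger standard errors. Col4a5 was 0.27 ± 0.09, Col6a1 0.40 ± 0.14, Col12a1 0.23 ± 0.10 and Col11a1 -0.17 ± 0.09. Col4a6 shrank to 0.17 ± 0.23 and Col18a1 to 0.12 ± 0.10. The score was mostly higher in the ApoE4 libraries, so genotype and meningeal tissue cannot be told apart with it.

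In the hippocampus 1 of 37 collagens was higher and 1 lower in ApoE4, against 2.83% of all 14940 genes. Col4a2 stood at 94.6 to 123 CPM (median 104) in ApoE3 and 107 to 132 CPM (median 122) in ApoE4 (0.23 ± 0.05, edgeR adjusted p = 0.0218, 8 of 8 above the ApoE3 median). Col4a1 differed by 0.18 ± 0.06 and did not pass (edgeR adjusted p = 0.164). Col28a1, a von Willebrand factor A domain collagen of peripheral nerve, stood at 1.21 to 1.83 CPM (median 1.49) in ApoE3 and 0.0648 to 1.11 CPM (median 0.488) in ApoE4 without overlap (-1.46 ± 0.30, edgeR adjusted p = 0.0117), where 1.07% of all genes did not overlap. In the cortex Col28a1 differed by -0.43 ± 0.25 (edgeR adjusted p = 0.261). Col28a1 held 1111 counts over all 64 libraries, so its values rest on few reads. Hippocampal Col1a1 and Col3a1 differed by -0.46 ± 0.59 and -0.27 ± 0.61 and did not pass (edgeR adjusted p = 0.792 and 0.895). With the meningeal covariate these turned to 0.17 ± 0.16 and 0.32 ± 0.14 (edgeR adjusted p = 0.650 and 0.278), and without ApoE3 rat 61 alone the Col3a1 value was 0.11. With the covariate 3 collagens passed, Col4a1 (0.23 ± 0.05, edgeR adjusted p = 0.00979) beside Col28a1 and Col4a2, where 3.05% of all genes did. Col11a1 was lower in cortical ApoE4 libraries and stood 0.32 ± 0.09 apart in the hippocampus (edgeR adjusted p = 0.0736). DESeq2 called 2 collagens higher and 2 lower, where 3.56% of genes passed by it. Whether the genotype difference differs between regions was not tested.

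**Figure D4:**
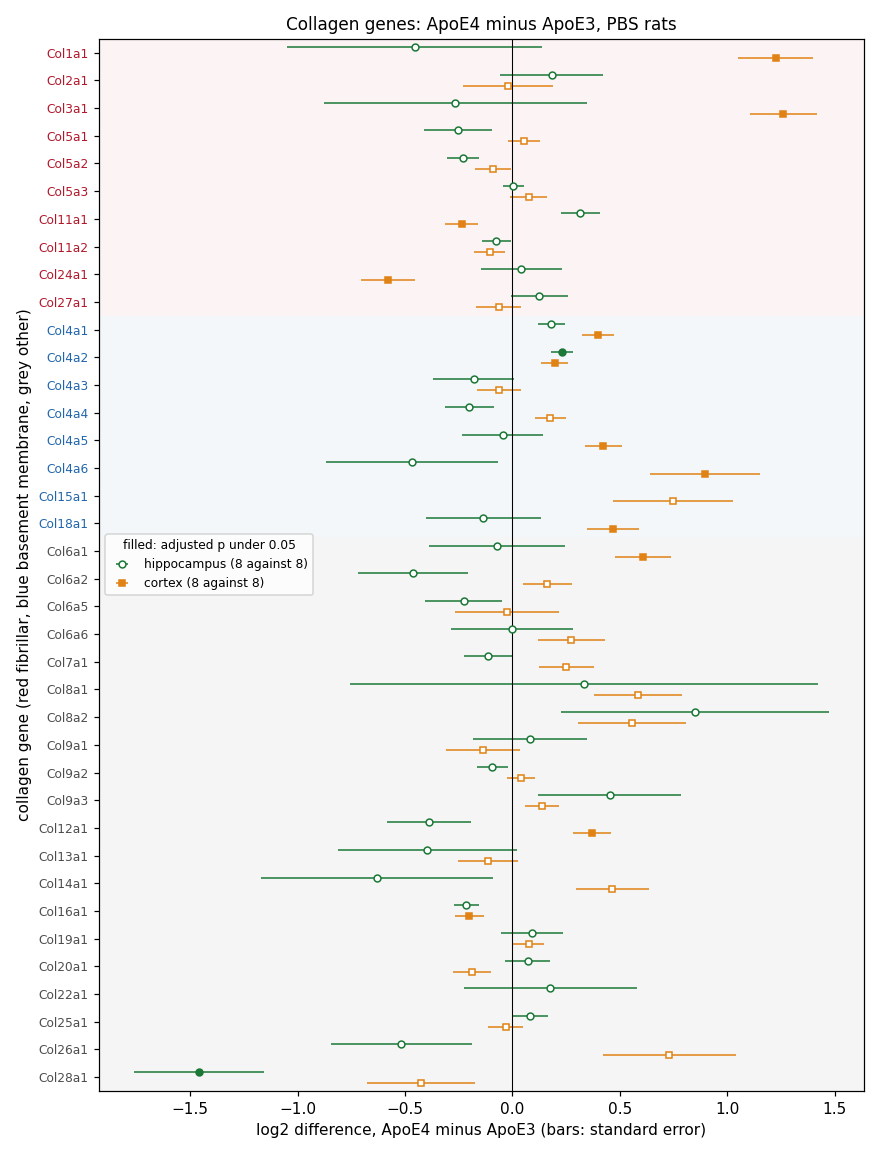
Difference between ApoE4 and ApoE3 rats given PBS for each collagen tested, as log2 ApoE4 minus ApoE3 with its standard error, in hippocampus (circles) and cortex (squares), 8 rats a group; filled symbols passed an adjusted p under 0.05. Most cortical type IV points lie to the right of zero, and the hippocampal points of Col1a1, Col3a1 and Col8a1 carry wide bars.

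The doxorubicin comparisons asked what the drug left in each region and genotype weeks after dosing. No collagen passed an adjusted p under 0.05 by edgeR in any of the 4 comparisons, nor did any other gene (0.0% of 14899, 14873, 14775 and 14838 genes). At an unadjusted p under 0.05, 13 of 36 collagens stood out in ApoE3 hippocampus beside 10.3% of all genes, 13 of 36 in ApoE3 cortex beside 9.25%, 0 of 36 in ApoE4 hippocampus beside 7.38% and 3 of 37 in ApoE4 cortex beside 8.82%. DESeq2's Wald test called 6 collagens lower in ApoE3 hippocampus (0.701% of genes were lower by it) and none in the other comparisons. The authors' deposited table for ApoE3 hippocampus lists 5 collagens below an adjusted p of 0.05, all lower (Col12a1, Col6a2, Col6a1, Col1a1 and Col5a1), among 0.991% of its genes, while the authors' deposited tables for the other comparisons list no collagen, among 0.00664% of genes in ApoE4 hippocampus, 0.0569% in ApoE3 cortex and 0.409% in ApoE4 cortex. The authors' deposited table for ApoE4 cortex gives an adjusted p for only 14 of its 37 collagens, and the other 23 could not be listed.

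In ApoE3 hippocampus Col1a1 stood at 13.6 to 151 CPM (median 63.9) with PBS and 9.77 to 34.4 CPM (median 14.0) with doxorubicin, a difference of -2.05 ± 0.48 (edgeR adjusted p = 0.170, DESeq2 adjusted p = 0.0190). Col3a1 stood at 8.64 to 92.4 CPM (median 29.8) and 5.00 to 27.8 CPM (median 6.85) (-1.95 ± 0.52). All 8 treated libraries lay below the PBS median for both, yet 3 of the PBS libraries (rats 56, 43 and 37) were within the treated range for Col1a1, so the groups overlapped. Col6a1 stood at 14.6 to 52.4 CPM (median 25.4) and 9.43 to 16.8 CPM (median 13.4) (-1.17 ± 0.25, edgeR adjusted p = 0.170). Col6a2 stood at 29.2 to 82.5 CPM (median 45.1) and 19.9 to 30.5 CPM (median 25.0) (-0.96 ± 0.19, edgeR adjusted p = 0.170). Here 1 treated library reached into the PBS range for Col6a2, and for Col6a1 the lowest 2 PBS libraries lay within the treated range. Col12a1 differed by -0.71 ± 0.16, Col5a1 by -0.44 ± 0.11 and Col18a1 by -0.84 ± 0.24. Of collagens above zero, Col25a1 (0.23 ± 0.08), Col2a1 (0.41 ± 0.20), the type II chain of cartilage, and Col20a1 (0.19 ± 0.09) had the smallest p. Col4a1 and Col4a2 differed by -0.07 ± 0.07 and 0.03 ± 0.06 and had edgeR adjusted p-values of 0.778 and 0.910.

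The meningeal marker sums were mostly lower in treated libraries too, though they were not low in every library low in Col1a1. Of the 8 hippocampal ApoE3 PBS libraries, those of rats 61, 41, 45, 59, 37 and 58 had sums of 410.3 to 1181 CPM. Of the 8 treated libraries, 5 held 106 to 125 CPM and the rest 327 to 731 CPM. PBS rat 37 and treated rats 51 and 65 had meningeal sums of 473, 700 and 731 CPM. Their choroid plexus sums were 3726, 7055 and 5893 CPM, whose part in the meningeal sums was not tested. Their meningeal scores (mean log2 CPM) were 3.09, 2.89 and 3.43, against 5.15 in PBS rat 61. With the meningeal score as a covariate, the Col1a1 difference was -0.10 ± 0.15, that of Col3a1 -0.00 ± 0.17, that of Col6a1 -0.30 ± 0.15 and that of Col6a2 -0.34 ± 0.12 (edgeR adjusted p at least 0.666). Col18a1 turned to 0.03 ± 0.11 and Col4a1 to 0.09 ± 0.06, while Col2a1 was 0.76 ± 0.24 (unadjusted p = 0.00486, edgeR adjusted p = 0.594) and Col8a2 went from 0.35 ± 0.62 to 1.34 ± 0.61. Col1a1 and Col3a1 followed this score at r = 0.97 and 0.98 over the hippocampal libraries. The score was itself mostly lower in treated ApoE3 libraries, so drug and meningeal tissue cannot be told apart with it. Without the libraries high in choroid plexus markers the Col1a1 difference was -2.21 ± 0.55. 

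In ApoE4 hippocampus the collagen median was -0.05. The smallest p-values belonged to Col8a2 (-1.41 ± 0.68), Col20a1 (-0.21 ± 0.11) and Col27a1 (-0.19 ± 0.12) below zero and Col5a3 (0.18 ± 0.09), Col16a1 (0.09 ± 0.06) and Col6a6 (0.30 ± 0.22) above it. Without PBS rat 7, high in choroid plexus markers, Col8a2 was -0.70 and Col27a1 -0.07, and without treated rat 10 Col6a6 was 0.14. Col1a1 stood at 14.2 to 153 CPM (median 27.2) with PBS and 11.1 to 247 CPM (median 20.1) with doxorubicin, the highest value being that of rat 10. The difference was -0.41 ± 0.66 with this library and -1.64 ± 0.54 without the libraries high in choroid plexus markers, of which it is one (edgeR adjusted p = 0.371). It was 0.06 with the meningeal covariate and 0.07 without PBS rat 22. In ApoE3 cortex 29 of 36 collagens lay above zero, with a median of 0.15 beside -0.00 for all genes, of which 49.9% lay above zero. Those of smallest p were Col7a1, the anchoring fibril chain (0.53 ± 0.14), Col5a1 (0.21 ± 0.06) and Col4a5 (0.31 ± 0.09). In the same comparison 15 of 16 meningeal, 11 of 11 endothelial and 13 of 13 pericyte and smooth muscle markers also lay above zero, and their part in the collagen values was not tested. Below zero the smallest p-values were those of Col25a1 (-0.16 ± 0.10), Col9a1 (-0.21 ± 0.18), Col28a1 (-0.11 ± 0.24). In ApoE4 cortex Col6a1 had the smallest p (-0.60 ± 0.14, unadjusted p = 0.000250, edgeR adjusted p = 0.273), at 31.6 to 77.0 CPM (median 48.3) with PBS and 24.8 to 42.8 CPM (median 31.7) with doxorubicin. The upper end of the PBS range was the 4 males described above. It was followed by Col14a1 (-0.38 ± 0.16) and Col4a1 (-0.14 ± 0.07) below zero and by Col19a1 (0.18 ± 0.06), Col24a1 (0.31 ± 0.15) and Col25a1 (0.13 ± 0.07) above it.

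**Figure D5:**
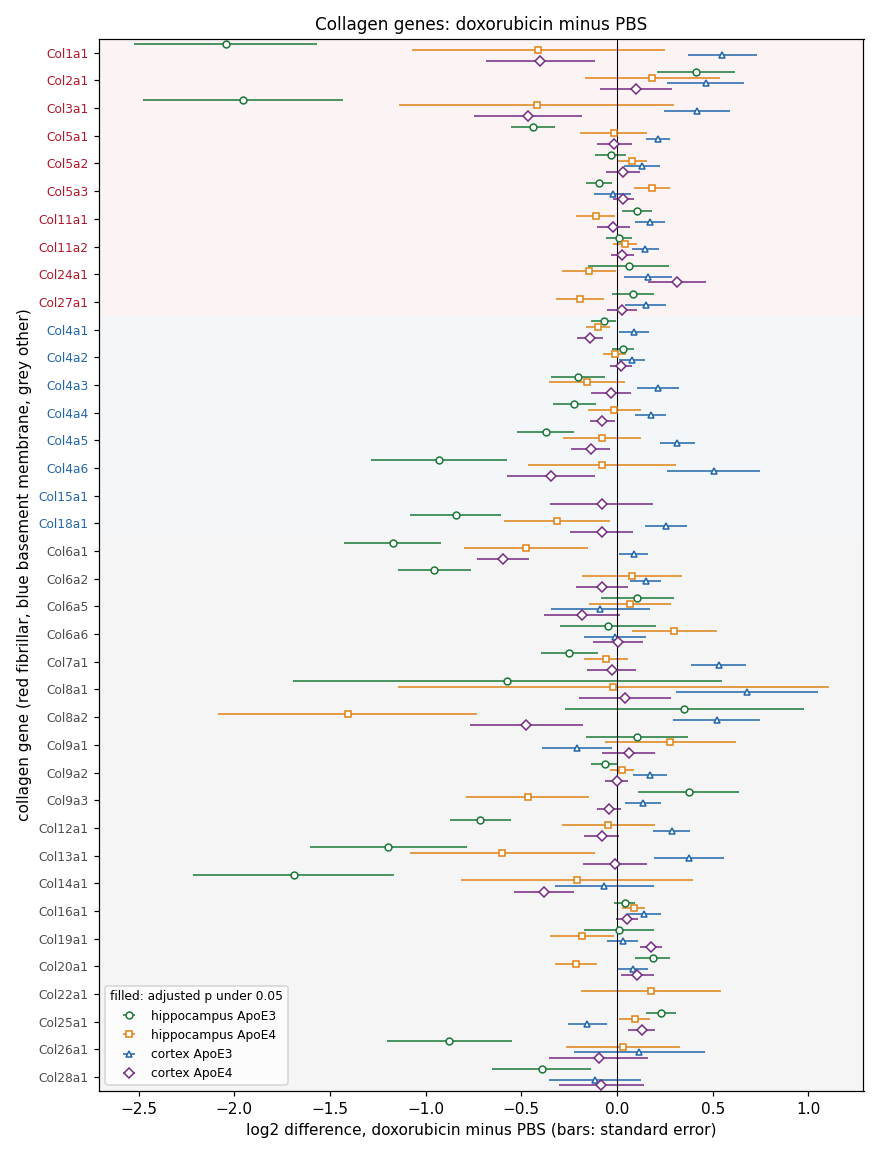
Difference between doxorubicin and PBS rats for each collagen tested, as log2 doxorubicin minus PBS with its standard error, in the 4 combinations of region and genotype, 8 rats a group. No symbol is filled, as none passed an adjusted p under 0.05; the ApoE3 hippocampal circles of Col1a1 and Col3a1 lie near -2 and the ApoE3 cortical triangles mostly right of zero.

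The difference in drug response between regions was tested directly in the rats of each genotype. In ApoE3 rats no collagen passed in the fit without pairing, nor any other gene (0.0% of 15428), while 16 of 37 collagens had an unadjusted p under 0.05 beside 8.0% of all genes. With the rat as a block, which pairs the regions of an animal, 8 collagens passed, all with a lower response in hippocampus than in cortex, where 1.42% of all genes passed in that direction. They were Col6a2 (-1.02 ± 0.16, edgeR adjusted p = 0.00191), Col12a1 (-0.86 ± 0.14), Col6a1 (-1.18 ± 0.20), Col1a1 (-2.16 ± 0.39, edgeR adjusted p = 0.00342), Col5a1 (-0.50 ± 0.10), Col3a1 (-2.02 ± 0.43), Col18a1 (-0.87 ± 0.20) and Col14a1 (-1.71 ± 0.46, edgeR adjusted p = 0.0483). Without pairing the Col1a1 and Col6a2 estimates were -2.61 ± 0.54 and -1.11 ± 0.22, with edgeR adjusted p-values of 0.0601 and 0.0601. DESeq2, without pairing, called 9 collagens, all lower, where 0.692% of genes passed in that direction. Above zero, in the edgeR fit without pairing, the smallest p-values were those of Col25a1 (0.38 ± 0.13), Col9a1 (0.31 ± 0.32) and Col20a1 (0.10 ± 0.12). With the block they were those of Col20a1 (0.19 ± 0.09), Col9a3 (0.48 ± 0.22) and Col25a1 (0.21 ± 0.10). These values reuse the libraries of the ApoE3 comparisons above, so the meningeal sums given there stand beside them too, and their part in the result was not tested.

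In ApoE4 rats no collagen passed for the difference between regions, with or without the block. In the edgeR fit without it, 2 of 38 had an unadjusted p under 0.05 beside 3.59% of all genes. These were Col20a1 (-0.31 ± 0.14) and Col24a1 (-0.45 ± 0.22), followed below zero by Col19a1 (-0.31 ± 0.21), and above zero Col5a3 (0.16 ± 0.11), Col6a6 (0.30 ± 0.25) and Col6a5 (0.26 ± 0.29) had the smallest p. The difference in drug response between genotypes gave no call in either region. In the hippocampus 6 of 37 collagens and 8.18% of all genes had an unadjusted p under 0.05, led by Col6a2 (1.04 ± 0.35), Col5a3 (0.29 ± 0.13) and Col12a1 (0.66 ± 0.30) above zero and by Col20a1 (-0.40 ± 0.14), Col9a3 (-0.83 ± 0.44) and Col8a2 (-1.71 ± 0.98) below it. Without the libraries high in choroid plexus markers the Col9a3 and Col8a2 values turned to 0.18 and 0.15. In the cortex 11 of 37 did beside 5.45%, led by Col6a1 (-0.71 ± 0.19), Col4a5 (-0.46 ± 0.15) and Col7a1 (-0.57 ± 0.20) below zero and by Col25a1 (0.28 ± 0.13), Col19a1 (0.15 ± 0.10) and Col9a1 (0.27 ± 0.23) above it. The 8 basement membrane collagens lay below zero in the cortex (median -0.30), as did 17 of 17 meningeal markers (median -0.64). So did 11 of 11 endothelial and 14 of 14 pericyte and smooth muscle markers. The part of these markers was not tested, and the share of all genes below zero in this term is not given here. The same PBS and treated libraries enter these terms and the comparisons above.

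The drug response of males and females was compared in a test added after seeing the data. In the cortex of ApoE3 rats the response was higher in females than in males for 2 of 36 collagens, Col14a1 (log2 difference of responses 1.58 ± 0.39, edgeR adjusted p = 0.0321) and Col9a2 (0.54 ± 0.14, edgeR adjusted p = 0.0398), where 2.57% of all genes passed. At an unadjusted p under 0.05 there were 24 collagens beside 19.5% of genes. DESeq2 called 8 (with 6.1% of genes), and none passed by edgeR without the libraries high in choroid plexus markers (0.564% of genes). Col14a1 stood at 3.34 to 6.09 CPM in PBS males, 2.18 to 3.39 CPM in treated males, 1.79 to 3.74 CPM in PBS females and 3.10 to 8.11 CPM in treated females. No collagen passed by edgeR in the cortex of ApoE4 rats or in the hippocampus of either genotype (0.00674%, 0.0% and 0.0% of all genes), where 3, 0 and 2 had an unadjusted p under 0.05 beside 5.84%, 4.45% and 3.49% of all genes. DESeq2 called Col6a1 in the ApoE4 cortex (0.97 ± 0.19, DESeq2 adjusted p = 0.00250), where 0.152% of genes passed by it. Cortical Col6a1 of ApoE4 males was 57.9 to 77.0 CPM with PBS and 24.8 to 40.7 CPM with doxorubicin. In females it was 31.6 to 38.7 CPM and 28.6 to 42.8 CPM. How many of all genes separate groups of 4 was not counted. With 4 rats a cell and rat numbers in blocks by sex, handling cannot be told apart from sex here.

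Genes that make, trim, bind or break down collagen were described from 6 lists, counting the genes tested. Between regions, where 49.3% of all genes passed in ApoE3 and 49.2% in ApoE4, 10 of 15 genes of collagen modification and folding were higher in the hippocampus and 1 lower in each genotype. The exception was P4ha3, a prolyl 4-hydroxylase subunit (-2.60 in ApoE3 and -2.33 in ApoE4), while Serpinh1, the collagen chaperone HSP47, was higher by 0.49 and 0.41. Of 12 genes of processing and cross-linking 6 were higher and 2 lower in ApoE3 and 4 and 2 in ApoE4. The procollagen peptidase Adamts3 was higher by 0.94 and 1.08, and the cross-linking enzyme Loxl1 by 1.38 and 1.18. Of 10 genes of breakdown 5 were higher and 2 lower in each genotype, with Mmp9 lower by 0.86 and 0.95. Of 8 receptors 4 and 3 were higher and 0 and 1 lower, and the fibrillar collagen receptor Ddr2 was higher by 1.11 and 0.41. Of 14 basement membrane partners 8 were higher and 3 lower in ApoE3 and 3 and 4 in ApoE4. The laminin chain Lamb1 was higher by 0.56 and 0.51. Of 9 fibril-associated genes 8 were higher and 1 lower in ApoE3 and 5 and 1 in ApoE4, with Fbn1, the microfibril protein fibrillin, higher by 1.80 and 1.53 and Postn lower by 2.36 and 2.59.

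In the cortex of ApoE4 against ApoE3 PBS rats the same lists gave 2 higher and 2 lower of 15 modification genes, 3 and 0 of 12 processing genes, 4 and 0 of 10 breakdown genes, 4 and 1 of 8 receptors, 8 and 0 of 14 basement membrane partners and 4 and 1 of 9 fibril-associated genes, where 9.21% of all genes were higher and 6.98% lower. The meningeal, endothelial and pericyte markers given above rose in the same libraries, and their part in these counts was not tested. P3h2, a prolyl 3-hydroxylase of basement membrane collagens, rose by 1.38, and it was the only gene of these lists that passed in the hippocampus (1.09). Lamc3 (1.05), Nid2 (0.65) and Nid1 (0.60), a laminin chain and the nidogens that tie laminin to type IV collagen, rose in the cortex, as did the collagen-binding integrin genes Itga1 (0.77) and Itgb1 (0.34) and the membrane collagenase Mmp14 (0.87). The small proteoglycans Fmod and Lum rose by 1.02 and 1.05, and both also stand in the meningeal marker list. Lair1, an inhibitory collagen receptor of immune cells, fell by 0.78. No gene of these lists passed in any doxorubicin comparison. The smallest p-values in ApoE3 hippocampus within each list belonged to genes such as Adamts2 (-0.57), Dcn (-0.75), Lum (-1.17) and Lama1 (-0.92), and the list medians there ran from -0.75 for fibril-associated genes to -0.03 for modification and folding.

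Col2a1, Col22a1 and Col26a1 had group medians of 0.304 to 2.28 CPM and passed in none of the region, genotype or drug comparisons in which they were tested. Col14a1, a FACIT collagen of fibroblasts, had group medians of 0.878 to 5.45 CPM and was lower in the hippocampus of ApoE4 PBS rats by 1.14 ± 0.34. Col28a1 was lower there by 1.25 ± 0.33. Col11a2, another type XI chain, stood at medians of 191 to 254 CPM in all groups. In RefSeq, Col1a1 overlaps Sgca, Col20a1 overlaps Chrna4, and Col4a6, Col6a5 and Col6a6 each overlap another protein-coding gene. The library kit is not described as keeping strand, so reads of such partners cannot be told apart where the exons overlap.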

How the data were processed

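RNA of 64 libraries was sequenced, and the authors deposited 4 tables of gene counts, 1 per region and genotype, and 4 tables comparing doxorubicin with PBS. The counts are whole numbers per gene, and STAR 2.5.2b and DESeq2 are named per the submitters' processing notes. The genome build and annotation are not given in the sources used here. In the comparison tables the authors deposited a normalized signal per library (the count divided by a size factor), a log2 fold change, and a p-value with its adjusted value per gene. Spike-in rows, 92 per table and 0.932 to 2.44% of counts, were left out, and library totals (spike-ins included) of 10836181 to 20397553 counts set the counting precision. Of the 32552 gene rows, 15432 carry a symbol in the comparison tables.

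Differences were tested on the deposited counts with edgeR 4.0.16 (R 4.3.3): TMM scaling, filterByExpr, a quasi-likelihood F-test with sex as a covariate, and Benjamini-Hochberg adjustment over all genes tested, at 0.05. A standard error is the absolute log2 difference divided by the square root of F. Printed levels are CPM on gene totals, and groups were called non-overlapping on TMM-scaled CPM. Log2 CPM for correlations used a prior count of 1, and permutation tests (100000 permutations, two-sided) used Python 3.11.15. The fit for a drug or genotype comparison held the 16 libraries concerned, that for a region comparison the 16 PBS libraries of a genotype, and interaction terms the 32 libraries concerned. The rat number in the labels pairs the regions: the log2 CPM deviations of the 32 same-rat pairs correlated at a median of 0.169 (-0.048 to 0.278), against -0.031 over 224 pairs of different rats, across 15885 genes. The procedure was tested on simulated data with known changes.

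The members, gene lists and tests were chosen with earlier results of these data known. Described in every case were 19 collagens of a fixed list. Also named were, per comparison, each collagen that passed or, where more than 12 passed, the 6 of smallest p in each direction, and where none passed the 3 of smallest p in each direction. From each pathway list, genes that passed or the 2 of smallest p were eligible. Alternatives were DESeq2 1.42.0, its size factors in edgeR, no filter, no sex term, a fit of all libraries of a region, the rat as a block, and leaving out each library. After seeing the data, 3 more were added: leaving out the 11 libraries above 500 CPM of choroid plexus markers, a meningeal covariate, and a test of sex by doxorubicin.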

Additional observations from a re-analysis of the deposited data

Results flagged for a closer look

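For the 19 collagens described in every group, each of the 152 sets of 8 libraries was checked for a highest or lowest library standing apart from the other 7, a gap that chance gives in about 1 of 20 sets, and 17 sets had one. Of these, 8 were the hippocampus of ApoE4 doxorubicin rat 10, which was highest for Col1a1 (247 CPM), Col3a1 (190.4 CPM), Col5a1 (71.8 CPM), Col4a5 (50.6 CPM), Col18a1 (52.2 CPM), Col6a1 (67.8 CPM), Col6a2 (90.4 CPM) and Col8a2 (28.4 CPM). Its meningeal marker sum of 1839 CPM was the highest of the 64 libraries, and its part in these values was not tested. The cortex of ApoE4 PBS rat 26 was lowest for Col1a1 (21.2 CPM), Col3a1 (19.1 CPM) and Col18a1 (8.57 CPM), and its meningeal sum was 170.5 CPM.

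The other 6 sets each concerned a single gene. Col5a1 was highest in the cortex of ApoE4 doxorubicin rat 31 (66.9 CPM), and Col4a1 in the hippocampus of ApoE3 doxorubicin rat 47 (76.1 CPM). Col8a1 was highest in the cortex of ApoE3 doxorubicin rat 72 (16.2 CPM), while Col9a3 was lowest in the cortex of ApoE3 PBS rat 61 (12.5 CPM). Col16a1 was highest in the hippocampus of ApoE4 PBS rat 3 (70.7 CPM) and the cortex of ApoE3 doxorubicin rat 65 (89.7 CPM).

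Drug responses differed between the regions of ApoE3 rats, with the rat as a block, for Col6a2 (-1.02), Col12a1 (-0.86), Col6a1 (-1.18), Col1a1 (-2.16), Col5a1 (-0.50), Col3a1 (-2.02), Col18a1 (-0.87) and Col14a1 (-1.71), on the log2 scale as hippocampal minus cortical response. In the cortex of ApoE3 rats, drug responses differed between the sexes for Col14a1 (log2 difference 1.58 ± 0.39) and Col9a2 (0.54 ± 0.14), a comparison added after seeing the data.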

How the results depend on the processing

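Of the recounts of passing collagens, 175 stayed within 1.5 times the reported count and 13 did not. Of the re-estimated differences of single collagens, 1735 kept their direction and side of the threshold, while 43 lost and 33 gained a call and 20 changed sign. The levels changed by less than their spread when scaled by TMM. With the rat as a replicate block, the region by doxorubicin count in ApoE3 rats rose from 0 to 8, and the block changed the count of no other region comparison (27 in ApoE3, 24 in ApoE4 and 0 for region by doxorubicin in ApoE4). For the same ApoE3 term DESeq2 called 9 and edgeR without a filter 5. DESeq2 called 6 for doxorubicin in ApoE3 hippocampus (0 by edgeR) and 4 for genotype in the hippocampus (2 by edgeR). Without a filter 1 collagen passed for doxorubicin in ApoE4 cortex. With the meningeal covariate, chosen after seeing the data, 4 passed for genotype in the cortex (12 without it) and 3 in the hippocampus (2 without it). For sex by doxorubicin in ApoE3 cortex (2 by edgeR), DESeq2 called 8, no filter gave 11 and leaving out libraries high in choroid plexus markers gave 0, and in ApoE4 cortex DESeq2 and no filter each gave 1. Why these counts moved was not tested. Leaving out each library in turn gave 9 to 13 calls for genotype in the cortex, 2 to 4 in the hippocampus (4 without ApoE4 PBS rat 3) and 0 in each of the 4 drug comparisons. The signs that turned, none of them of a collagen that had passed, were as follows. With the meningeal covariate they were those of Col4a3 (0.029) and Col6a2 (-0.064) for genotype in the cortex, Col1a1 (0.17) and Col3a1 (0.32) for genotype in the hippocampus, Col18a1 (0.026) and Col4a1 (0.085) for doxorubicin in ApoE3 hippocampus and Col1a1 (0.060) for doxorubicin in ApoE4 hippocampus. Without libraries high in choroid plexus markers they were those of Col9a3 (0.18) and Col8a2 (0.15) for genotype by doxorubicin in hippocampus, Col8a2 (-0.94) for doxorubicin in ApoE3 hippocampus, Col1a1 (0.084) and Col9a3 (-0.10) between regions in ApoE4 and Col3a1 (0.83) for sex by doxorubicin in ApoE4 hippocampus. Leaving out 1 library turned Col28a1 for doxorubicin in ApoE3 cortex (-0.235 to 0.037, PBS rat 41), Col4a2 (-0.010 to 0.057, PBS rat 45 or treated rat 68) and Col8a2 (-0.46 to 0.55, treated rat 51 or 65) in ApoE3 hippocampus, Col1a1 in ApoE4 hippocampus (-1.44 to 0.071, PBS rat 22) and Col3a1 for genotype in the hippocampus (-0.76 to 0.11, ApoE3 rat 61). The cause was not tested. Members near or below 1 CPM, such as Col15a1 and Col22a1, were too shallow for small differences to be detectable.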

Other observations

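Pairs of collagens were set against each other across the 32 libraries of a region, as deviations of log2 CPM from group means. The chains of a pair occur in the same fibrils or networks or have neighbouring genes. The pair of Col18a1 and Col6a1 is an exception and meets neither description. There were 12 pairs and 24 relations. The two-sided permutation p-values were adjusted over the 24, and 1e-05 is the smallest p that the permutations can give. Col1a1 and Col3a1 had r = 0.97 and rho = 0.94 in the hippocampus (permutation p = 1e-05 and 1e-05, adjusted 3.43e-05 and 3.00e-05; r = 0.96 without the 2 farthest libraries) and r = 0.97 and rho = 0.92 in the cortex (permutation p = 1e-05 and 1e-05, adjusted 3.43e-05 and 3.00e-05; r = 0.96 without the 2 farthest libraries). Col6a1 and Col6a2 had r = 0.85 and rho = 0.82 in the hippocampus (permutation p = 1e-05 and 1e-05, adjusted 3.43e-05 and 3.00e-05; r = 0.75 without the 2 farthest libraries) and r = 0.07 and rho = 0.02 in the cortex (permutation p = 0.692 and 0.922, adjusted 0.791 and 0.922; r = -0.05 without the 2 farthest libraries). Col4a1 and Col4a2 had r = 0.49 and rho = 0.48 in the hippocampus (permutation p = 0.00506 and 0.00575, adjusted 0.00867 and 0.00986; r = 0.37 without the 2 farthest libraries) and r = 0.68 and rho = 0.70 in the cortex (permutation p = 2.00e-05 and 2.00e-05, adjusted 5.33e-05 and 4.36e-05; r = 0.66 without the 2 farthest libraries). Col4a5 and Col4a6 had r = 0.85 and rho = 0.81 in the hippocampus (permutation p = 1e-05 and 1e-05, adjusted 3.43e-05 and 3.00e-05; r = 0.81 without the 2 farthest libraries) and r = 0.55 and rho = 0.58 in the cortex (permutation p = 0.00116 and 0.000690, adjusted 0.00214 and 0.00138; r = 0.56 without the 2 farthest libraries). Col6a5 and Col6a6 had r = 0.05 and rho = 0.05 in the hippocampus (permutation p = 0.776 and 0.798, adjusted 0.822 and 0.913; r = -0.04 without the 2 farthest libraries) and r = -0.13 and rho = -0.09 in the cortex (permutation p = 0.464 and 0.641, adjusted 0.557 and 0.855; r = 0.03 without the 2 farthest libraries). Col9a1 and Col19a1 had r = 0.16 and rho = 0.05 in the hippocampus (permutation p = 0.370 and 0.779, adjusted 0.467 and 0.913; r = -0.11 without the 2 farthest libraries) and r = -0.01 and rho = 0.04 in the cortex (permutation p = 0.971 and 0.844, adjusted 0.971 and 0.921; r = -0.02 without the 2 farthest libraries). Col4a3 and Col4a4 had r = 0.73 and rho = 0.74 in the hippocampus (permutation p = 1e-05 and 1e-05, adjusted 3.43e-05 and 3.00e-05; r = 0.68 without the 2 farthest libraries) and r = 0.67 and rho = 0.70 in the cortex (permutation p = 3.00e-05 and 1e-05, adjusted 7.20e-05 and 3.00e-05; r = 0.59 without the 2 farthest libraries). Col3a1 and Col5a2 had r = 0.25 and rho = 0.05 in the hippocampus (permutation p = 0.159 and 0.793, adjusted 0.211 and 0.913; r = 0.02 without the 2 farthest libraries) and r = 0.66 and rho = 0.69 in the cortex (permutation p = 7.00e-05 and 2.00e-05, adjusted 0.000153 and 4.36e-05; r = 0.66 without the 2 farthest libraries). Col18a1 and Col6a1 had r = 0.93 and rho = 0.89 in the hippocampus (permutation p = 1e-05 and 1e-05, adjusted 3.43e-05 and 3.00e-05; r = 0.91 without the 2 farthest libraries) and r = 0.47 and rho = 0.40 in the cortex (permutation p = 0.00656 and 0.0222, adjusted 0.0105 and 0.0356; r = 0.34 without the 2 farthest libraries). The other 3 pairs had r = 0.41 and 0.57 (Col5a1 and Col5a2), 0.76 and 0.71 (Col8a1 and Col8a2) and 0.05 and 0.33 (Col9a1 and Col9a2) in hippocampus and cortex. Col6a1 and Col6a2 were thus closely related in the hippocampus, where both also varied with the meningeal markers, r was larger there for Col18a1 with Col6a1 than for Col6a1 with Col6a2, and neighbouring genes ranged from pairs with no r above 0.2 in size (Col6a5 with Col6a6, Col9a1 with Col19a1) to Col4a3 with Col4a4, above 0.6 in both regions. Sex was not removed from the deviations, and cortical Col6a1 divided by sex in ApoE4 PBS rats. The part of sex in the cortical values of Col6a1 with Col6a2 was not tested. Whether a relation differs between regions was not tested.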
